A study of Homo sapiens with 6 samples.

Results

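S100 genes encode small calcium-binding proteins, and 10 of them were followed here among the 58870 genes of a count table from WM164 cells, an established human melanoma line. The members were taken by gene name: S100B, which lies on chromosome 21, and S100A1, S100A2, S100A3, S100A4, S100A6, S100A10, S100A11, S100A13 and S100A16 of the S100 cluster on the long arm of chromosome 1. RNA was sequenced in 3 libraries of WM164 cells overexpressing GFP and 3 of WM164 cells overexpressing T-MGM, a single protein in which MAFG, a small MAF transcription factor, is joined through a flexible linker to the melanocyte isoform of MITF, the master regulator of the melanocyte lineage. The study made T-MGM to ask what the MAFG and MITF pair does when the partners cannot separate, and the comparison asks here how the S100 genes differ between the dimer and the control. Both constructs were delivered by lentivirus into the same line under the constitutive EF1α promoter with blasticidin selection, so the dimer was imposed on cells that kept their own MITF and MAFG. All cells were grown in RPMI with fetal bovine serum. The labels do not say whether the libraries of a group came from separate cultures, so the p-values measure only the spread between these libraries, which may be technical.

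S100 proteins carry a pair of EF-hands, helix-loop-helix motifs that hold calcium, and act mostly as dimers. On binding calcium they open a surface that docks onto target proteins such as annexins and myosin heavy chains, and some are released from the cell and bind receptors such as AGER. S100B is the classical immunohistochemical and serum marker of melanoma, and several S100A proteins are linked to cell migration and to epithelial differentiation.

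Depth was 35057239 to 38738065 counts per GFP library and 44577774 to 59250663 per library labelled T-MGM. The construct genes did not set the groups apart clearly, with a log2 fold change of -0.06 for MAFG (DESeq2 adjusted p of 0.236) and 0.08 for MITF (adjusted p of 4.8e-07), so they do not check the labels from which every direction below is taken. Of 7 melanocyte lineage markers, all but TYRP1 had more than 10 counts, and their summed TPM was 963.87 to 976.92 in GFP and 831.21 to 864.94 in T-MGM libraries. They went both ways: DCT, a pigment enzyme, fell from 11460 ± 126 to 2050.5 ± 88.8 normalized counts (log2 -2.49; DESeq2 adjusted p given as 0), MLANA (-0.68) and TYR (-0.35) were also lower, and SOX10 (0.11), MITF (0.08) and PMEL (0.05) were higher. Of 16 markers of other cell types, 10 were at or near 0: KRT5, KRT1, TP63 and PTPRC had at most 3 counts in every library, and KRT14, DSG3, CD14, ITGAM, COL1A2 and DCN at most 10. The other 6 had more, namely KRT10 (703 to 1334 counts; adjusted p of 0.292), CD68 (637 to 1575; log2 0.45), LUM (259 to 745; 0.77), COL1A1 (16 to 82; 1.23) and PDGFRB (2 to 58; 1.37), of which the last 4 were higher in T-MGM libraries, and LYZ (20 to 73; -1.32), which was lower. The summed TPM of 6 keratinocyte markers was 20.42 to 21.92 in GFP and 19.58 to 21.31 in T-MGM libraries, that of 5 leukocyte markers 11.25 to 12.75 and 11.88 to 15.66, and that of 5 fibroblast markers 4.11 to 4.64 and 4.54 to 6.72. Their part in the S100 results was not tested.

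Upstream sequence was compared for the genes whose directions contrast, because S100A3 and S100A4 are neighbors on the same strand and moved in opposite directions. RefSeq (GRCh38.p14) gave start windows for 9 of the 10 members, not S100B. The 250 bases before a start are shown for 3 genes that rose (S100A3, S100A2 and S100A16) and for 2 that fell (S100A4 and S100A11). The windows chosen are free of annotated exons. Those of S100A4, S100A2, S100A16 and S100A11 lie inside the annotated span of their own gene, before an inner start. All 5 are read on the minus strand of chromosome 1: chr1:153545807-153546056 for S100A4, chr1:153549259-153549508 for S100A3, chr1:153565845-153566094 for S100A2, chr1:153609356-153609605 for S100A16 and chr1:152037005-152037254 for S100A11. Capitals mark the E-boxes CACGTG and CATGTG, the AP-1 site TGANTCA and the TATA box TATAAA where a window holds them. The S100A10 window (151993860 to 151994109) was also free of annotated exons and is not shown. It holds none of these marked motifs, so the windows shown are not all that met the rule.
S100A4: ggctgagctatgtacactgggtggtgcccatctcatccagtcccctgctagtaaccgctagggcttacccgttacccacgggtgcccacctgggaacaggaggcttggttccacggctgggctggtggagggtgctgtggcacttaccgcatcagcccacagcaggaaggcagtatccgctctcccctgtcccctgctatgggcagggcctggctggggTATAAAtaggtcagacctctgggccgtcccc
S100A3: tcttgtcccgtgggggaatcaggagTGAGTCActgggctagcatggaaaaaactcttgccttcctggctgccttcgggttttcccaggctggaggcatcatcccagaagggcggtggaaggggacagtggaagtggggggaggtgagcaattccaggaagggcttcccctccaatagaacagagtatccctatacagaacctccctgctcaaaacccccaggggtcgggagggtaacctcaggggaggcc
S100A2: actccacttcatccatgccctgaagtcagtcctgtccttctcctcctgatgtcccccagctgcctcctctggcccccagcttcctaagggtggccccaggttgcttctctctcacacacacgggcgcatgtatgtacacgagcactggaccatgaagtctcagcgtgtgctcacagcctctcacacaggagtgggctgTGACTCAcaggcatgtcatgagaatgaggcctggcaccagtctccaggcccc
S100A16: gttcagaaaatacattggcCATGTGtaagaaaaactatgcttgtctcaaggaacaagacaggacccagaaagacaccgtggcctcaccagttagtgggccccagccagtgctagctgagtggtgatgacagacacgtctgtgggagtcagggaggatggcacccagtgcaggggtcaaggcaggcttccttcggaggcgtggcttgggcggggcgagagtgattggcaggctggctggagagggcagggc
S100A11: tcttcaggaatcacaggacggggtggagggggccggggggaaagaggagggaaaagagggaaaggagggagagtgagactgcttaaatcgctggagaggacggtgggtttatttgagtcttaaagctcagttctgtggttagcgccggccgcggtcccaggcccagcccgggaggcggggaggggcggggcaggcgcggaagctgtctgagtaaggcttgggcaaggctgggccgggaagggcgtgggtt

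Motif searches covered 13 start windows of the 9 members, each from 250 bases before to 50 bases after the start, on both strands, and the same windows of 35116 promoters. The E-box form CACGTG, to which MITF homodimers bind, and the longer form TCATGTG had no match in the member windows, against 7.26% and 2.92% of all promoters. CATGTG, which TCATGTG contains, occurred in a window of S100A16, beginning 231 bases before the start, and in a window of S100A13, and in 11.1% of all promoters. TGANTCA, the AP-1 site that is also the core of the longer MAF recognition element, occurred 225 bases before the start of S100A3 and 52 bases before a start of S100A2, and in 7.71% of all promoters. TATAAA lay 31 bases before the start of S100A4 and 29 bases before a start of S100A13, against 11.5% of all promoters. The general E-box CANNTG includes both 6-base forms above. It occurred in 9 of the 13 member windows, those of 6 of the 9 members, and in 68.7% of all promoters. The MAF half-site TGCTGA occurred in 1 of the 13 member windows, of S100A2, and in 17.3% of all promoters. GCNNNNTCA, the element of MAF dimers with CNC factors, occurred in 6 of the 13 and in 41.8% of all promoters. Those 6 windows belong to S100A11, S100A2, S100A16 and S100A13. S100A16 and S100A13, with CATGTG, and S100A3 and S100A2, with TGANTCA, all rose in T-MGM cells. S100A1 and S100A10 were also higher without a match to either motif in their windows. The rise of S100A10 was only 0.07 on the log2 scale, and its call held in 8 of 17 alternative fits. Both motifs are taken from those searched above, and 6 of the 9 tested members, with S100A10 counted, rose in any case. Other motifs lay in windows of genes that fell, GCNNNNTCA in S100A11 and TATAAA and CANNTG in S100A4. The same motifs also lay in windows of genes that rose. The upstream bases of the S100A13 window with CATGTG (153634362 to 153634611) lie outside the annotated span of S100A13, over an exon of a noncoding gene. These matches describe letters only, and the share of all promoters that hold them shows how common each is.

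S100 transcripts of the control cells were dominated by a few genes. On the TPM scale, which corrects for transcript length and so allows genes to be compared, S100A11 had the highest level in GFP libraries at 613 ± 9.67 (SD, n = 3), followed by S100A1 at 545 ± 7.25, S100A10 at 226 ± 4.80, S100B at 183 ± 7.05 and S100A13 at 73.0 ± 0.825. S100A4 (14.8 ± 0.617 TPM) and S100A16 (9.14 ± 0.227 TPM) were far lower. The levels of S100A2 (2.94 ± 0.333 TPM) and S100A3 (2.79 ± 0.258 TPM) overlapped between libraries, and S100A6 was last at 0.267 ± 0.124 TPM. All other neighbors in this order were separated in every GFP library. In T-MGM libraries the order changed at 2 places: S100A1 (795 ± 15.4 TPM) stood above S100A11 (422 ± 15.8 TPM), and S100A16 (17.1 ± 1.44 TPM) above S100A4 (8.35 ± 0.210 TPM). S100A2 and S100A3 again overlapped, at 5.05 ± 0.406 and 4.56 ± 0.741 TPM.

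**Figure D1:**
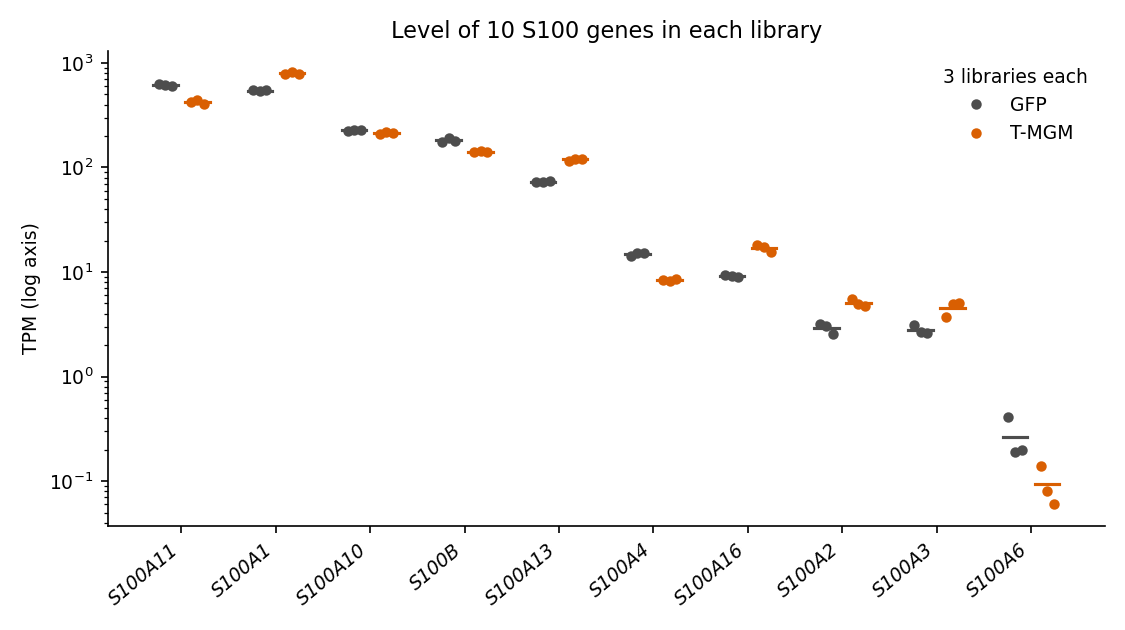
TPM of each S100 gene (log axis) in the 3 GFP libraries (grey) and the 3 T-MGM libraries (orange), ordered by the GFP mean. Points are libraries and horizontal lines are group means. S100A1 passes S100A11 and S100A16 passes S100A4 in T-MGM libraries, while S100A6 lies below 0.5 TPM in all 6.

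Between the groups, 6 members were higher in T-MGM libraries (S100A1, S100A2, S100A3, S100A10, S100A13 and S100A16) and 3 were lower (S100B, S100A4 and S100A11) at a DESeq2 adjusted p at or under 0.05. Among all 19135 genes tested, 19.2% were higher and 19.2% were lower by the same rule, or 38.4% in either direction. Among genes whose normalized counts averaged at least 50, as those of all 9 tested members did, 54.0% passed in either direction. S100A6 had too few counts to receive an adjusted p. S100A16 was the only member that also changed over 2-fold, against 4.63% of all genes tested (3.26% upward), and it was just past that line. Normalized counts did not overlap between groups for any of the 9 tested members, as was the case for 46.8% of all genes tested. Among genes whose normalized counts averaged at least 50, this held for 7683 of 12652 tested. The median log2 fold change of the 9 was 0.67, beside a median of -0.0027 over all tested genes. Fewer cells of a kind and less RNA per cell cannot be told apart in such bulk libraries.

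**Figure D2:**
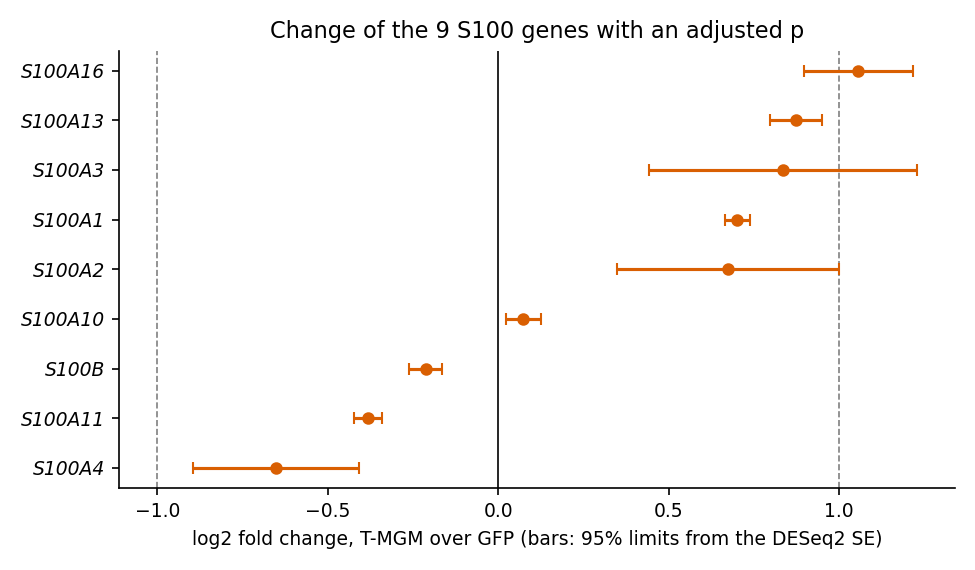
Log2 fold change of T-MGM over GFP for the 9 S100 genes with an adjusted p (horizontal axis), with bars for 95% limits from the DESeq2 standard error. Dashed lines mark 2-fold. S100A16 at 1.06 is past the line, S100A10 at 0.07 lies closest to 0, and S100A4 at -0.65 is the lowest.

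S100A1, best known from heart muscle where it binds the ryanodine receptor and the calcium pump ATP2A2, showed the largest gain in TPM among the members. It had 11029, 10731 and 11075 normalized counts in GFP libraries, against 17544, 17796 and 18026.5 in T-MGM libraries. All 3 T-MGM libraries lay far above the control libraries, and the fold was 1.63 (95% limits 1.58 to 1.67), or 0.70 on the log2 scale with an SE of 0.0186 (DESeq2 adjusted p given as 0, too small to be stored). The log2 difference was 0.56 with GC content and length offsets and 0.55 in the fits of TPM values. Both lie below its log2 95% limits of 0.66 to 0.74. The median over genes was -0.0052 with the offsets and -0.13 to -0.15 in the TPM fits. The S100A1 gene (ENSG00000160678.11) spans 153627926 to 153632039 of chromosome 1 (GRCh38, plus strand).

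S100A13, which binds FGF1 and takes part in its copper-dependent release from cells, rose from 1868, 1884 and 1897 normalized counts to 3334, 3426.5 and 3579.8. Every T-MGM library was well above every GFP library. This was a 1.83-fold increase (95% limits 1.74 to 1.93), or 0.87 on the log2 scale with an SE of 0.0391 (DESeq2 adjusted p of 1.42e-108). It was 0.77 with GC content and length offsets and 0.70 to 0.71 in the fits of TPM values, below the log2 limits of 0.80 to 0.95. S100A13 (ENSG00000189171.14) lies on the minus strand at 153618787 to 153631360, so its first part overlaps S100A1 in the opposite orientation. The exons of S100A1 and S100A13 share 235 bases, 7.80% of the S100A1 exonic length and 10.6% of that of S100A13. The labels name a library kit without strand information and the methods a stranded one, so reads from the shared bases cannot be told apart.

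S100A1 and S100A13 rose together but not in equal measure. The ratio of S100A1 to S100A13 counts was 5.90, 5.70 and 5.84 in GFP libraries and 5.26, 5.19 and 5.04 in T-MGM libraries. The ratio was lower in every T-MGM library, with a 2-sided exact permutation p of 0.1, the smallest that 3 against 3 libraries allow. S100A13 also shares 536 exonic bases (24.2%) with AL162258.1, a noncoding gene on its own strand, whose normalized counts averaged 23.5 in the control and 22.8 with T-MGM (DESeq2 adjusted p of 0.946). S100A1 shares 320 exonic bases (10.6%) with AL162258.2 on the other strand, which had 5.39 and 12.2 normalized counts (adjusted p of 0.200). Both noncoding genes were tiny beside the S100 genes they overlap.

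S100A16, a widely expressed member with an atypical EF-hand, had 404, 409 and 394 normalized counts in GFP libraries, against 879.5, 851 and 785 in T-MGM libraries. The groups were widely separated, and its fitted fold was the highest of the members, with limits that overlap those of S100A13, S100A3 and S100A2. The fold was 2.08, with 95% limits of 1.86 to 2.33 that include 2, and its log2 value was 1.06 with an SE of 0.0819 (DESeq2 adjusted p of 1.35e-36). The increase passed the test under every alternative, whereas the 2-fold call was lost with shrunken fold changes (0.96), with offsets for GC content and transcript length (0.93) and on the TPM scale (0.83 to 0.90). S100A16 (ENSG00000188643.11) lies on the minus strand at 153606886 to 153613145.

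S100A2, a member typical of epithelia, was a low-level transcript with 111.5, 119 and 104 normalized counts in GFP libraries, against 191, 181.5 and 163 in T-MGM libraries. The lowest T-MGM library was still above the highest GFP library. The log2 difference of 0.67 had an SE of 0.166 (DESeq2 adjusted p of 0.000214) and 95% limits of 1.27-fold to 2.0-fold. S100A2 (ENSG00000196754.10) occupies 153561108 to 153567890 on the minus strand.

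S100A3, a zinc-binding member typical of the hair cuticle, had 80.3, 73.6 and 72.0 normalized counts in GFP libraries, against 114, 140.5 and 148 in T-MGM libraries. The T-MGM libraries spread more widely (coefficient of variation 13.2%) than counting error gives at this depth (8.0%), but all lay above the GFP range. On the TPM scale the lowest T-MGM library had 3.71 and the highest GFP library 3.09. On the log2 scale the increase was 0.83 with an SE of 0.201 (DESeq2 adjusted p of 0.000143), with 95% limits of 1.36-fold to 2.34-fold. It was 0.53 with shrunken fold changes and 0.54 on the log2(TPM + 1) scale.

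S100A4, a protein linked to metastasis that binds the myosin heavy chain MYH9, moved the other way. It had 282, 299 and 304 normalized counts in GFP libraries, against 187, 181.5 and 194 in T-MGM libraries. Each T-MGM library was below each GFP library. S100A4 fell by 36.3%, a log2 difference of -0.65 with an SE of 0.124 (DESeq2 adjusted p of 9.56e-07), and this was the largest fall among the tested members. S100A3 (ENSG00000188015.10; 153547329 to 153549258) sits inside the annotated span of S100A4 (ENSG00000196154.12; 153543613 to 153550136) on the same strand, and the genes share no exonic base. The S100A4 start whose upstream bases are shown above (153545807 to 153546056) lies past S100A3, so a transcript from that start does not span S100A3. The ratio of S100A3 to S100A4 counts was 0.285, 0.246 and 0.237 in GFP libraries and 0.610, 0.774 and 0.760 in T-MGM libraries. The balance within this pair thus shifted towards S100A3 in every T-MGM library (2-sided exact permutation p of 0.1, the smallest possible). This separation follows from the opposite changes of the genes and adds no support to them. In the sequences above, the S100A4 window holds TATAAA close to the start and the S100A3 window a distant TGANTCA match.

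S100B, the melanoma marker, fell slightly. It had 8183, 8715 and 8302 normalized counts in GFP libraries, against 7171.5, 7269.6 and 7307 in T-MGM libraries. The groups did not overlap, although the change was small beside that of S100A1. S100B fell by 13.7% (95% limits 0.835-fold to 0.892-fold), or -0.21 on the log2 scale with an SE of 0.0245 (DESeq2 adjusted p of 4.35e-17). In the fits of TPM values the difference was larger, -0.36 to -0.37, where the median over genes was itself -0.13 to -0.15. S100B (ENSG00000160307.10) lies on chromosome 21 at 46598604 to 46605208 on the minus strand. Because S100A1 rose while S100B fell, the ratio of S100A1 to S100B counts went from 1.35, 1.23 and 1.33 in GFP libraries to 2.45, 2.45 and 2.47 in T-MGM libraries, with no overlap (2-sided exact permutation p of 0.1, the smallest possible).

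S100A11, a partner of ANXA1 in membrane repair and trafficking, was the most abundant member in control cells and fell. Its normalized counts were 11447, 11221 and 10990.3 in GFP libraries and 8602, 8772 and 8468 in T-MGM libraries. The values within each group were close together and the groups far apart. The fall was 23.2%, or -0.38 on the log2 scale with an SE of 0.0215 (DESeq2 adjusted p of 8.4e-69). It was -0.47 with GC content and length offsets and -0.54 in the fits of TPM values, beyond the 95% limits of -0.42 to -0.34. S100A11 (ENSG00000163191.6) lies at 152032506 to 152047907 on the minus strand, and its pseudogenes S100A11P1 and S100A11P2 were listed with 0 counts in every library.

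S100A10, which does not respond to calcium and forms a tetramer with ANXA2, was nearly level. It had 5305, 5428 and 5478 normalized counts in GFP libraries, against 5567, 5736 and 5755 in T-MGM libraries. The gap between the groups was narrow, and the log2 difference of 0.07 with an SE of 0.0262 (DESeq2 adjusted p of 0.0151) had 95% limits of 1.01-fold to 1.09-fold. The call was lost with total counts as scaling (0.02; DESeq2 adjusted p of 0.622) and with GC content and length offsets (0.02; adjusted p of 0.570). On the log2(TPM + 1) scale the sign turned to -0.08 (limma adjusted p of 0.0568), where the median over genes was itself shifted to -0.13. S100A10 (ENSG00000197747.9) lies at 151982915 to 151993859 on the minus strand.

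S100A6, or calcyclin, which many melanoma and nevus cells express, was close to absent in WM164. Its raw counts were 4, 2 and 2 in GFP libraries and 2, 1 and 1 in T-MGM libraries. With a floor of 3 counts, equal to 0.0506 to 0.0856 CPM, no difference could be detected in these libraries. S100A6 (ENSG00000197956.10) lies at 153534599 to 153536244 on the minus strand.

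The summed TPM of the 10 genes differed less in size than in make-up. The sum was 1670 ± 1.27 in GFP and 1727.5 ± 38.5 in T-MGM libraries. The share of S100A1 in that sum went from 32.6% ± 0.458 to 46.0% ± 0.2502, and that of S100A11 from 36.7% ± 0.578 to 24.4% ± 0.492 (SD, n = 3). S100A13 went from 4.37% ± 0.0494 to 6.91% ± 0.187, S100B from 10.96% ± 0.414 to 8.21% ± 0.0792, and S100A10 from 13.5% ± 0.286 to 12.4% ± 0.0979. Each of these shares kept a separate range in the groups. S100A1 and S100A11 thus changed places, and the ratio of their counts went from 0.963, 0.956 and 1.01 in GFP libraries to 2.04, 2.03 and 2.13 in T-MGM libraries (2-sided exact permutation p of 0.1, the smallest possible). With 4 such ratios compared, the Benjamini-Hochberg adjusted p of each was also 0.1. Shares in a sum are bound to each other, so a larger share of one gene lowers the others.

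**Figure D3:**
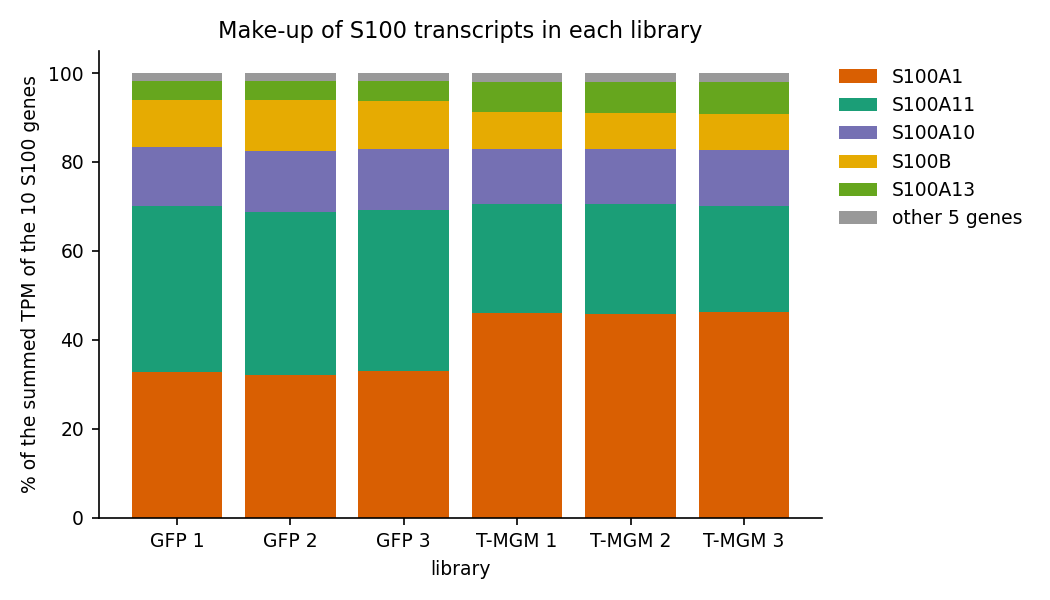
Share of each S100 gene in the summed TPM of the 10 genes (percent, vertical axis) in each of the 6 libraries. S100A1 makes up 32.1% to 33.0% of the bar in GFP libraries and 45.9% to 46.3% in T-MGM libraries, and S100A11 shrinks from 36.2% to 37.3% down to 23.9% to 24.8%.

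Chromosome 1 holds 9 of the members in 2 blocks, S100A10 and S100A11 -1634 and -1580.0 kb from the start of S100A1, and a tight block from S100A6 to S100A13. Within the tight block, S100A3, S100A2, S100A16, S100A1 and S100A13 rose, S100A4 fell and S100A6 was not detectable. Of 23 other genes within 1 Mb of this block whose normalized counts averaged at least 50, 11 were lower in T-MGM libraries and 1 was higher, ATP8B2 at a log2 fold change of 0.10 (DESeq2 adjusted p of 0.00323, a gene named after its value was seen), with a median of -0.07. Over all genes of that level, 27.6% were lower and 26.4% higher. Within 1 Mb of S100A10 and S100A11, 19 of 22 such genes were lower with a median of -0.40, and S100A11 with its -0.38 was near that median. S100A10 at 0.07 was not. One gene was in both sets. Of the 11 such genes within 1 Mb of S100B on chromosome 21, 4 were higher (COL6A1, COL6A2, LSS and C21orf58, named after their values were seen) and 7 did not pass, with a median of 0.04. Over all genes with a mean of at least 50 the median was -0.0097. Differences by position of this kind were not tested, and their part in the S100 values was not tested either.

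**Figure D4:**
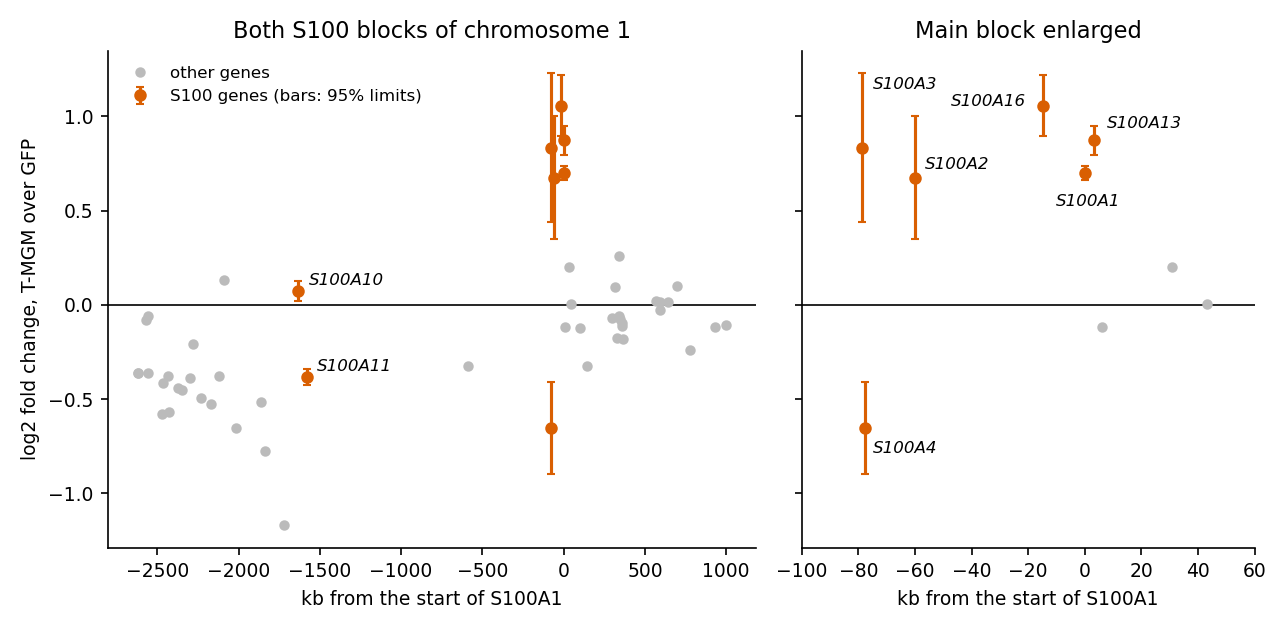
Log2 fold change of T-MGM over GFP against distance in kb from the start of S100A1 for S100 genes (orange, bars for 95% limits) and for other genes within 1 Mb whose normalized counts averaged at least 50 (grey). The right panel enlarges the tight block, where S100A4 at -0.65 lies below its neighbors and S100A2, S100A3, S100A16, S100A1 and S100A13 lie between 0.67 and 1.06. Grey points around S100A10 and S100A11 lie mostly below 0.

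Other S100 genes of the table gave little signal. S100A5, which lies between S100A6 and S100A3, averaged 11.6 ± 4.10 normalized counts in the control and 15.2 ± 2.29 with T-MGM (log2 fold change 0.37; DESeq2 adjusted p of 0.674). S100A14, between S100A16 and S100A1, had 4.26 ± 2.62 and 4.17 ± 2.10 (adjusted p of 0.987). S100A9, S100P, S100Z and S100A7A had at most 3 counts in any library, and S100A7, S100A8, S100A12 and S100G were listed with 0 counts in all 6. These 8 genes were therefore at or under the floor of 3 counts.

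Among genes with an S100-like start fused to a long repeat protein of the skin barrier, 7 had counts and 3 were tested. HRNR, or hornerin, was lower in T-MGM libraries, at 9.07 ± 1.53 normalized counts in the control and 0.571 ± 0.509 with T-MGM (DESeq2 adjusted p of 0.00948). Those counts are near the floor, so no fold is given. FLG, or filaggrin, had 2.68 and 3.20 normalized counts (adjusted p of 0.909), and TCHH, or trichohyalin, 13.96 and 10.3 (adjusted p of 0.699).

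Annexins and the scaffold AHNAK, to which S100A10, S100A11 and other members bind, all passed the test upward, 6 of 6, beside 26.4% of all genes whose normalized counts averaged at least 50. ANXA2, the tetramer partner of S100A10, had 28200, 28119 and 28303 normalized counts in GFP libraries, against 41982, 42099 and 41762 in T-MGM libraries. The T-MGM libraries were all far above the controls, with a log2 difference of 0.57 and an SE of 0.0127 (DESeq2 adjusted p given as 0), while S100A10 itself was at 0.07. ANXA1, the partner of S100A11, went from 3696 ± 66.1 to 4775 ± 126 normalized counts (log2 fold change 0.37; adjusted p of 2.88e-32), while S100A11 fell. AHNAK, a giant scaffold held at the membrane by S100A10 and ANXA2, had a log2 fold change of 0.14 (adjusted p of 3.98e-21). ANXA6, ANXA11 and ANXA5 had 0.18, 0.12 and 0.08. With total counts as scaling 5 of the 6 were higher, and in the fits of TPM values, which differ in quantification, scale and test, 2 were higher and up to 1 was lower.

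Receptors reported for secreted S100 proteins were higher in 4 of 5 tested, out of 6 listed receptors in the count table, beside 19.2% of all genes tested. Of genes whose normalized counts averaged at least 50, as those of all tested receptors but AGER did, 26.4% were higher. ALCAM, an adhesion molecule, had 24.0, 34.6 and 34.3 normalized counts in GFP libraries, against 400, 463 and 438 in T-MGM libraries. All T-MGM libraries lay far above all GFP libraries, with a log2 difference of 3.801, an SE of 0.196 (DESeq2 adjusted p of 1.52e-81) and 95% limits of 10.7-fold to 18.2-fold. ALCAM was a low-level transcript, at 0.23 ± 0.07 TPM in GFP and 1.88 ± 0.146 TPM in T-MGM libraries. NPTN, a receptor described for S100A8, had a log2 fold change of 0.30 (adjusted p of 1.03e-15), and BSG, or basigin, 0.12 (adjusted p of 2.11e-14). On the TPM scale BSG was level, at 324.2 ± 2.36 in GFP and 324.0 ± 7.60 in T-MGM libraries. TLR4 had 0.44 (adjusted p of 0.00136). AGER, the receptor best known for S100B, had 45.6, 33.6 and 67.4 normalized counts in GFP libraries, against 37.4, 51.7 and 47.2 in T-MGM libraries. These ranges overlapped, and the log2 fold change of -0.10 (DESeq2 adjusted p of 0.853) had 95% limits of 0.607-fold to 1.43-fold, so a moderate change in AGER was not detectable.

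Intracellular targets of S100 proteins went both ways, with 4 higher, 7 lower and 7 not passing among 18 tested, where 19.2% of all genes passed in each direction. Nearly all of them averaged at least 50 normalized counts, and of all genes of that level 26.4% were higher and 27.6% lower. MYH9, the myosin that S100A4 binds, went from 34957 ± 671 to 48526 ± 670 normalized counts, a log2 difference of 0.47 with an SE of 0.0154 (DESeq2 adjusted p of 1.95e-204), while S100A4 fell. CACYBP, the calcyclin-binding protein that takes its name from S100A6, fell from 6439 ± 89.8 to 5163 ± 65.1 (log2 fold change -0.32; adjusted p of 1.57e-35). PGM1, a glucose phosphate enzyme bound by S100A1 and S100B, had a log2 fold change of 0.39 (adjusted p of 1.58e-50), and ATP2A2, the calcium pump that S100A1 binds in muscle, -0.21 (adjusted p of 4.65e-38). The other 2 higher genes, FGF1 at 0.64 and STK38L at 0.56, were named after their values were seen. FGF1, the cargo of S100A13, went from 272 ± 34.3 to 423 ± 22.9 normalized counts (adjusted p of 9.51e-08). Over the 3 partner lists together, 14 of 29 tested genes were higher, 7 were lower and the median log2 fold change was 0.08. This balance depended on the scale: with log2(TPM + 1), 7 were higher and 10 lower. Of all genes tested 19.2% passed in each direction, and of those averaging at least 50 counts 26.4% were higher and 27.6% lower.

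**Figure D5:**
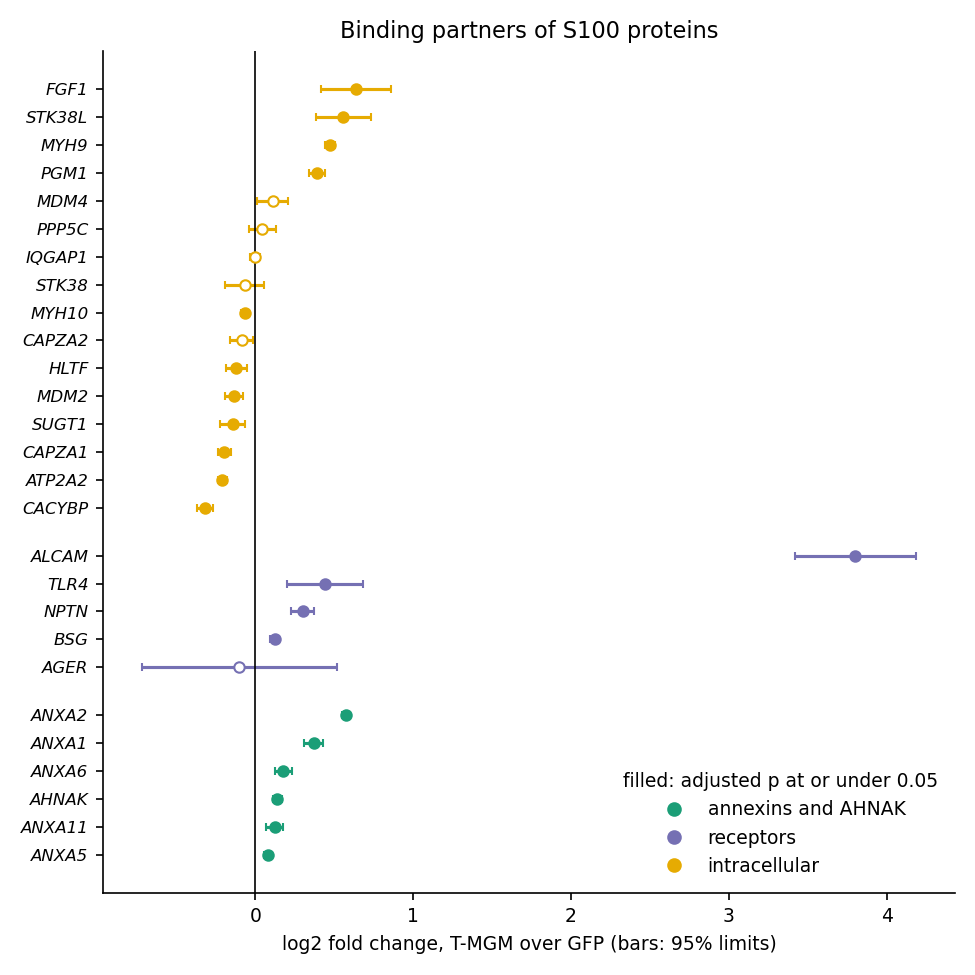
Log2 fold change of T-MGM over GFP (horizontal axis, bars for 95% limits) for genes encoding binding partners of S100 proteins whose normalized counts averaged at least 10. Filled points have an adjusted p at or under 0.05 and open points do not. ALCAM at 3.801 stands apart, and the annexins and AHNAK lie between 0.08 and 0.57.

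Other EF-hand genes, which share the calcium-binding motif but not the S100 fold, gave 14 higher, 7 lower and 10 not passing among 31 tested, with a median log2 fold change of 0.17. Of all genes tested, 19.2% were higher and 19.2% lower, so the share of EF-hand genes that was lower was near that of all genes. Of genes whose normalized counts averaged at least 50, 26.4% were higher and 27.6% lower. The changes with the largest test statistics were in RCN1, a reticulocalbin of the endoplasmic reticulum (0.23; DESeq2 adjusted p of 6.03e-30), CAPNS1, the small calpain subunit (0.34; adjusted p of 2.87e-28), and CAPN2, a calpain (0.21; adjusted p of 1.58e-23). In the fits of TPM values only 1 to 4 of the EF-hand genes passed upward. GCA, RCN3 and TNNC1, named after their values were seen, had fitted folds over 2, at most 38.0 normalized counts in either group mean.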

How the data were processed

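The authors trimmed reads with cutadapt 1.8.1 and aligned them to GRCh38 with STAR 2.7.7a (submitters' processing notes), and their methods name featureCounts for reads per gene. The deposited counts are whole reads per gene, not normalized, and replicates were kept apart. The deposited TPM values are scaled for transcript length and depth, and RSEM 1.3.0 is named in the same notes. The annotation release is not given in the sources used here.

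All genes were tested at once with DESeq2 1.42.0 in R 4.3.3, the tool of the study's methods: median-of-ratios size factors, group as the only term, a 2-sided Wald test, no shrinkage, independent filtering and Benjamini-Hochberg adjustment. DESeq2 was the main test instead of edgeR for that reason. Passing means an adjusted p at or under 0.05, and a call over 2-fold also an absolute log2 fold change over 1. Ratios were tested by 2-sided exact permutation, which cannot pass 0.05 with 3 against 3 libraries. For S100A3 to S100A4, S100A1 to S100B and S100A1 to S100A11, a gene that rose was set against one that fell. Their separation was therefore given by the single genes. A floor of 3 counts reflects counting error alone, because reads lacking molecular identifiers may repeat one molecule. The 95% limits come from the DESeq2 SE. The steps were tested on simulated data.

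The members, the gene lists and the rule for naming genes were chosen with earlier results of these data known. The rule named all members, list genes called over 2-fold whose normalized counts averaged at least 50, the 3 largest Wald statistics per list (marker lists aside), AGER, ANXA2, ANXA1, AHNAK and CACYBP, S100 family rows with a mean of at least 10, and tested genes overlapping a member. One listed partner gene is not reported here. Gene positions are from GENCODE 44 on GRCh38, which held 99.4% of the identifiers, and promoter sequences from RefSeq.

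Alternatives were edgeR 4.0.16 (quasi-likelihood, TMM), DESeq2 with TMM factors or total counts, with genes of 10 counts or more in 3 libraries, with a replicate block, without independent filtering, with shrunken fold changes, with lowess offsets for GC content and length (span 0.3), limma 3.58.1 on log2(TPM + 1) or log2(TPM + 0.1) for genes with a mean TPM over 0.5 or for all genes, and each library left out in turn.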

Additional observations from a re-analysis of the deposited data

How the results depend on the processing

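Of the 9 members with an adjusted p, 8 kept their direction and their side of the threshold under all 17 alternatives. S100A10 reversed in the 3 fits of TPM values (log2 fold changes of -0.0821, -0.0825 and -0.0821; limma adjusted p of 0.0568, 0.0579 and 0.123), where the median over genes was -0.13, -0.15 and -0.13. It also failed the threshold with total counts, with GC content and length offsets, with the replicate block (DESeq2 adjusted p of 0.0732), without GFP replicate 1 (0.114) and without T-MGM replicates 2 (0.0549) or 3 (0.0915). The cause was not tested. The number of members over 2-fold, 1 as reported, was 0 with shrunken fold changes, with GC content and length offsets and in the 3 TPM fits. The number of all genes over 2-fold, 885 as reported, was 207 with shrunken fold changes and 133, 334 and 126 with log2(TPM + 1), log2(TPM + 0.1) and log2(TPM + 1) without a filter. Upward calls made up 70.5% of the 885, against 52.6%, 55.4% and 52.4% on the TPM scale in the same order.

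Replicate numbers did not pair the libraries: deviations from the group means of same-numbered libraries correlated at -0.00665, -0.0579 and 0.0291 over 12654 genes. With the replicate number as a block, 735 genes were called over 2-fold, and of the members only S100A10 lost its call. Leaving out 1 library at a time gave log2 fold changes of 0.06 to 0.09 for S100A10 and 1.02 to 1.10 for S100A16, and left the number of members over 2-fold at 1.

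Counts over gene lists were recomputed under the same alternatives, a step chosen after seeing the data. The partner genes of the 3 lists together ranged from 6 to 15 higher (14 as reported) and from 4 to 11 lower (7 as reported). Their balance changed on the TPM scale, where the median over genes was itself below 0. There, 7 were higher and 10 lower with log2(TPM + 1), and 7 and 11 with log2(TPM + 0.1). With log2(TPM + 1) without a filter, 6 were higher and 6 lower. Neighbors of the chromosome 1 members ranged from 26 to 32 lower of 44 (29 as reported). Depth limited S100A6, S100A5, S100A14 and AGER, whose counts were too low to show a moderate change.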
